A study of Oryza sativa Japonica Group with 20 samples.

Results

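PLT5 sites that carried H3K27me3 and no H3K4me3 in wild-type (WT) rice root tips are described here, with EMF2b at these sites and the state of both histone marks in the plt345 mutant. CUT&Tag, in which a transposase tethered to an antibody inserts sequencing adapters nearby, mapped H3K27me3, H3K4me3 and EMF2b in WT and plt345 and PLT5 in WT, with 2 libraries per group. Nuclei came from root tips of about 0.8 cm of seedlings 7 days after germination. WT is titled ZH11 in the labels, and plt345 is a triple mutant of PLT3, PLT4 and PLT5, so the controls carry all 3 genes and the mutant is not informative on PLT5 alone. The sources used here do not give the alleles, the number of mutant lines or how many plants were pooled for each library. Peak lists of 14 of the 20 samples were used. The 6 others, IgG of both genotypes and PLT5 of plt345, were not analysed here, and PLT5 binding therefore has no mutant control. Overlapping PLT5 peaks of both libraries were merged into 14432 regions, of which 8781 were touched by both libraries and are called PLT5 sites. Of these, 1150 (13.1%) overlapped H3K27me3 peaks of both WT libraries by at least 1 bp and no peak of either WT H3K4me3 library. These 1150 H3K27me3-only sites were chosen by their WT values of PLT5, H3K27me3 and H3K4me3, so those values are descriptions without a test. For comparison, 2598 PLT5 sites had both marks in both WT libraries (two-mark sites) and 1032 had neither mark in any WT library. A further 291 sites had H3K27me3 in both WT libraries and H3K4me3 in only 1.

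H3K27me3 is laid down by Polycomb repressive complex 2 (PRC2) and marks silenced developmental genes, and EMF2b is a rice subunit of that complex. H3K4me3 is found at the start of active genes, and chromatin with H3K27me3 alone is the usual form of Polycomb-silenced chromatin. PLT proteins are AP2-type transcription factors, known from Arabidopsis for maintaining the stem cells and division zone of the root tip. The study's title names PLT, PRC2 and the H3K4 demethylase JMJ703 together at bivalent domains, which carry both marks, and sites with H3K27me3 alone are the other Polycomb state at which PLT5 was found.

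The WT H3K27me3 lists held 23957 and 24185 peaks and the plt345 lists 20841 and 20942. H3K4me3 peaks numbered 25165 to 25762 in WT and 26841 to 27182 in plt345, EMF2b peaks 14851 to 15486 and 15342 to 17891, and PLT5 peaks 12590 and 10822. The median −log10 q of H3K27me3 peaks was 3.34 and 3.36 in WT and 2.73 and 2.59 in plt345. Every fold and q printed here was set by the authors within its own library and serves only to rank or describe peaks. Read depth is unknown. Sites are given by their deposited positions on an unnamed assembly, without genes, so the root tip label could not be checked against marker genes. In bulk tissue, fewer cells with a mark and less of it per cell cannot be told apart.

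The H3K27me3-only sites were spread over all 12 chromosomes, with 2 more on the sequence named Sy, and most lay alone in their H3K27me3 domain. They made up between 11% of the PLT5 sites of chromosome 5 and 16% of those of chromosome 12. When the WT H3K27me3 peaks of both libraries were merged into domains, 1135 of the 25890 domains held such a site. Of these domains, 1120 held 1 and 15 held 2, and 93.9% of the sites were the only PLT5 site of any kind in their domain. Only 33 sites (2.87%) shared a domain with a two-mark site. These shares were not compared with those of other PLT5 sites under H3K27me3, so they are not shown to be particular to this class. The domains had a median length of 1420 bp, with quartiles of 824 and 2442 bp, against 1085 bp for all WT domains, and longer domains have more room for a site. The PLT5 summit lay a median of 320 bp from the nearer domain edge, and 38% of summits lay in the middle one when a domain was cut into 3 equal parts.

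PLT5 peaks were weaker at H3K27me3-only sites than at two-mark sites. The median −log10 q at H3K27me3-only sites was 9.67 in replicate 1 and 8.55 in replicate 2, while two-mark sites had 13.0 and 11.6 and sites with neither mark 8.61 and 8.16. The order of the 3 classes was the same in both PLT5 libraries. H3K27me3-only sites had a median width of 634 bp, against 727 bp for two-mark sites and 598 bp for sites with neither mark. Since a peak's q was part of how the sites were found, this is a description. H3K4me3 was near some of the H3K27me3-only sites all the same, with 179 (15.6%) within 1 kb of a WT H3K4me3 peak. Their median gap to the nearest such peak was 3194 bp, with quartiles of 1541 and 8160 bp. Sites with neither mark lay closer to WT H3K4me3, with a median gap of 1942 bp. Of those 1032 sites, 260 lay within 1 kb of a peak.

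The thresholds of the choice touched few sites. Only 4 sites had under 50 bp of H3K27me3 in a WT library and 4 lay within 50 bp of a WT H3K4me3 peak, while 436 (37.9%) lay wholly under H3K27me3 in both WT libraries. The site with the least H3K27me3, chromosome 4 from 25215714 to 25216980, had 9 bp of overlap, and the nearest site outside, chromosome 2 from 29394872 to 29395979, missed an H3K27me3 peak by 4 bp. On the H3K4me3 side, the site of chromosome 7 from 28712893 to 28713879 was 5 bp from a peak and the site of chromosome 10 from 20629999 to 20630796 was left out for 1 bp of overlap. Without PLT5 replicate 2 there were 1826 sites, and 753 when each antibody's libraries were held to an equal covered length.

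EMF2b, which the choice did not use, was present at most H3K27me3-only sites in WT and at fewer in plt345. An EMF2b peak lay on 902 of the 1150 sites (78.4%) in WT replicate 1 and on 902 in WT replicate 2, with 847 sites (73.7%) shared by both and 110 in 1 only. In plt345 it lay on 766 (66.6%) in replicate 1 and 843 (73.3%) in replicate 2. Both plt345 libraries were below both WT libraries, and the replicates of plt345 lay further apart than those of WT. Across all PLT5 sites 76.7% had EMF2b in both WT libraries, so the share in WT was close to the background. By library, EMF2b lay on 81.2% and 81% of all PLT5 sites in WT and on 77.6% and 82.6% in plt345. The mean difference over all PLT5 sites was −1.02 percentage points, and the genotypes overlapped. At H3K27me3-only sites the difference of plt345 from WT was −8.48 points, from 78.4 ± 0% to 70 ± 4.73% (SD, n = 2 each). The exact two-sided permutation test over libraries gave p = 0.333, the smallest that 2 against 2 libraries allow. Without plt345 EMF2b replicate 1 the difference was −5.13 points. With every EMF2b library held to an equal covered length it was −0.598 points, and the values then no longer separated the genotypes (exact p = 1).

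**Figure D1:**
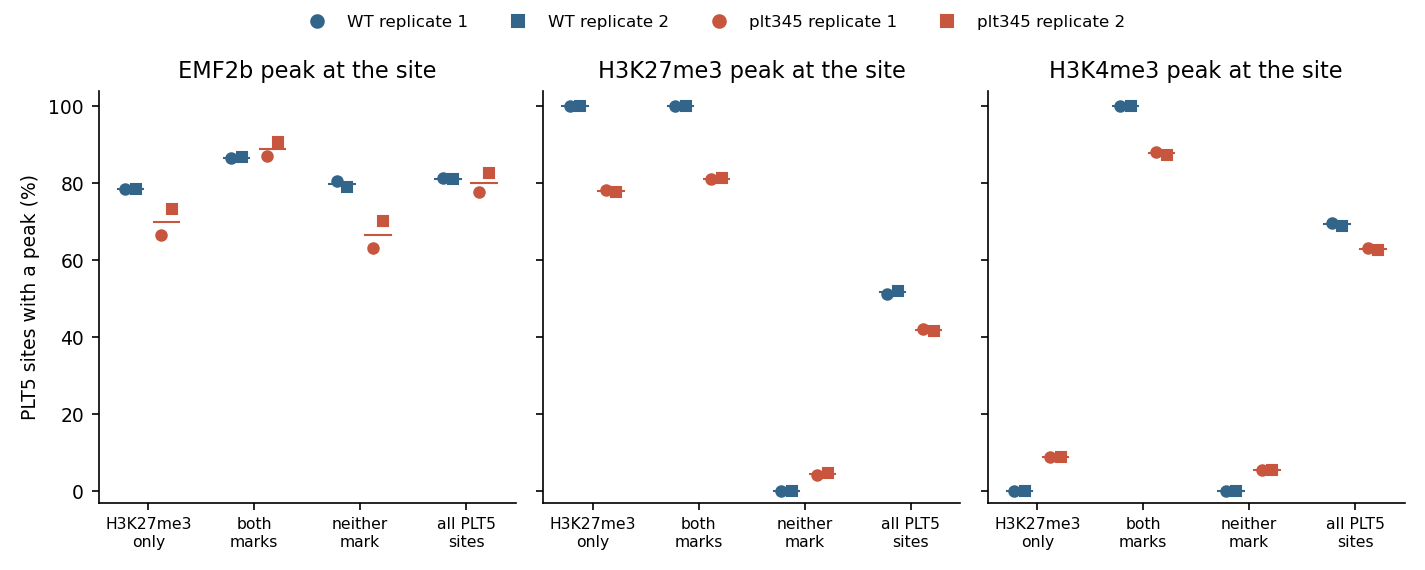
Share of PLT5 sites with an EMF2b (left), H3K27me3 (middle) or H3K4me3 peak (right), in percent, for 1150 H3K27me3-only sites, 2598 sites with both marks, 1032 with neither and all 8781 sites. Each point is a library, lines are means, and WT values of the histone marks are fixed at 100 or 0 by the choice in the first 3 classes, but not over all sites. At H3K27me3-only sites both plt345 EMF2b values, 66.6% and 73.3%, lie below the WT values of 78.4%.

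The other site classes showed where this pattern was shared. At sites with neither mark EMF2b lay on 80.5% and 78.9% by WT replicate, beside 63.1% and 70.2% for plt345, also lower in both mutant libraries. At two-mark sites it lay on 86.6% and 86.6% in WT and on 86.9% and 90.6% in plt345, so both mutant values were above both WT values. The 2492 sites with H3K4me3 alone stood at 76.3% and 75.9% in WT beside 76.7% and 82.6% for the mutant, again above in both mutant libraries. H3K27me3-only sites had less EMF2b than two-mark sites in 4 of 4 libraries, with differences of −8.17 and −8.21 points in WT and −20.3 and −17.3 points in plt345. The exact sign permutation over libraries gave p = 0.125, the smallest for 4. The difference in plt345 minus that in WT was −10.6 points (exact permutation p = 0.333). Two-mark sites also had stronger PLT5 peaks, with a median −log10 q of 12.3 against 9.15, and were wider, at 727 against 634 bp. The part of PLT5 strength and width in these EMF2b differences was not tested.

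EMF2b summits at the H3K27me3-only sites lay near the PLT5 summit, and EMF2b peaks were shorter in plt345 there and in the lists as a whole. The EMF2b summit lay a median of 86 and 87 bp from the PLT5 summit in the WT libraries and 98.5 and 94 bp in the plt345 libraries. At 648 sites (56.3%) EMF2b was found in all 4 libraries. On these same 648 sites its median peak length was 827 and 766 bp in WT and 532 and 614 bp in plt345, its median −log10 q 16.1 and 15.5 against 11.7 and 13.2, and its median fold enrichment 4.69 and 4.89 against 4.90 and 4.73. Lengths were therefore lower in both mutant libraries, while folds overlapped. Over all PLT5 sites with EMF2b in all 4 libraries the median length was 747.5 and 715 bp in WT beside 573 and 635 bp for the mutant, and the mean over each whole list was 652 and 625 bp beside 490 and 517 bp. Over 4 kb centred on the summit, EMF2b peaks covered a mean of 748 and 695 bp per H3K27me3-only site in WT and 454 and 549 bp in plt345, a ratio of 0.694 (exact permutation p = 0.333), against 0.814 for all PLT5 sites, 0.896 for two-mark sites and 0.642 for sites with neither mark. The shortest EMF2b peak anywhere was 290 and 285 bp in the WT lists and 247 and 249 bp in the plt345 lists, and the part of this in the lengths at the sites was not tested.

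Site by site, EMF2b was called lost (both WT libraries and neither plt345 library) at 98 of the 847 H3K27me3-only sites that had it (11.6%, Wilson 95% interval 9.59 to 13.9%). The same call took 6.41% of all PLT5 sites with EMF2b, 2.96% of two-mark sites and 15.9% of sites with neither mark. Genome-wide it took 19% of EMF2b regions, which were peaks merged over the 4 libraries, a different unit from PLT5 sites. EMF2b was called gained (the reverse) at 28 of the 193 sites without it in WT (14.5%, interval 10.2 to 20.2%), against 27.2% over all PLT5 sites, 37.5% at two-mark sites and 18.2% at sites with neither mark. Intervals cover counting error only, and sites of a library are not independent replicates, so these shares are set side by side and not tested. The sites with the strongest lost EMF2b were chromosome 8 from 10718060 to 10718671, with a −log10 q of 26.96 and 28.88, chromosome 4 from 26933036 to 26933752, with 25.5 and 29.5, and chromosome 8 from 17560067 to 17560536, with 29.7 and 23.4. All 3 kept H3K27me3 in both plt345 libraries. At the first, H3K27me3 peaks of 3501 and 3256 bp in WT stood beside 3239 and 3410 bp in plt345. The strongest gain was on chromosome 1 from 38271088 to 38271488, with a −log10 q of 21.2 and 26.1 in plt345. The losses numbered 172 without plt345 EMF2b replicate 2, 154 without PLT5 replicate 1 and 190 without PLT5 replicate 2. The gains numbered 48 and 55 without WT EMF2b replicate 1 or 2, 56 without plt345 EMF2b replicate 1, and 45 and 64 without PLT5 replicate 1 or 2, counts that ask for fewer libraries. Equal numbers of peaks per library left 18 gains, and equal covered length 61 losses.

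Sites that lost EMF2b kept or lost H3K27me3 at shares near those of all H3K27me3-only sites. H3K27me3 was kept in both plt345 libraries at 72 of the 98 sites that lost EMF2b (73.5%) and lost at 12 (12.2%), beside 70.2% kept and 14.2% lost over all 1150. Over the 847 sites with EMF2b in both WT libraries 66.6% kept it and 15.9% lost it. Among the 648 sites with EMF2b in all 4 libraries H3K27me3 was kept at 418 (64.5%) and lost at 106 (16.4%). Among the 128 sites without EMF2b in any library it was kept at 106 (82.8%) and lost at 10 (7.81%). These groups differed in median WT H3K27me3 peak length, with 1634 bp at the 98 sites, 1047 bp at the 648 and 1767 bp at the 128. The part of peak length in their shares was not tested. By library, H3K27me3 was present at 86.5% and 85.5% of the 193 sites without EMF2b in WT and at 75.4% and 75.2% of the 847 sites with it in both. The 193 sites lay under longer H3K27me3 peaks in WT, with a median of 1711 bp against 1151 bp. Within 3 strata of WT peak length the share lost was 27.8% against 35.1% for sites with EMF2b among short peaks, 7.69% against 11.8% in the middle stratum and 3.81% against 4.69% among long peaks, with 36, 52 and 105 sites without EMF2b.

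**Figure D2:**
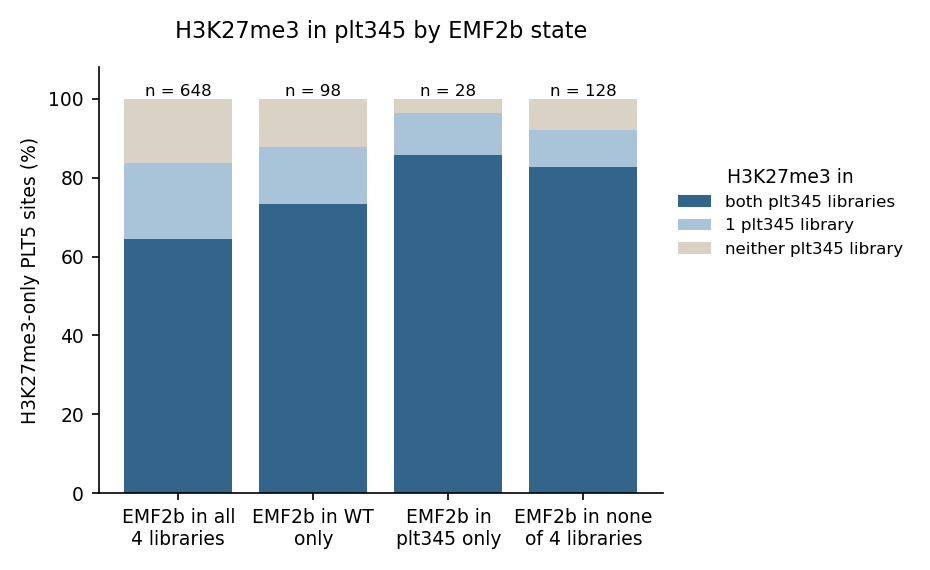
State of H3K27me3 in plt345 at H3K27me3-only PLT5 sites (percent of sites, stacked) by EMF2b state: in all 4 libraries, in both WT and neither plt345 library, the reverse, and in none. H3K27me3 was kept in both plt345 libraries at 64.5% of the 648 sites with EMF2b throughout and at 82.8% of the 128 sites without it. The median WT H3K27me3 peak length was 1047 bp at the 648 sites and 1767 bp at the 128. Sites with EMF2b in other combinations of libraries are not drawn.

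H3K27me3 itself was found in both plt345 libraries at 807 of the 1150 sites (70.2%), in 1 at 180 and in neither at 163 (14.2%, Wilson 95% interval 12.3 to 16.3%). By library it was present at 78.3% in plt345 replicate 1 and 77.7% in replicate 2, a narrow spread. All these sites had the mark in both WT libraries by choice, so they could only lose it, and the fair reference is other sites chosen in the same way. Over all 4039 PLT5 sites with H3K27me3 in both WT libraries, which include these 1150, 72.8% kept and 12.3% lost it. Genome-wide 11.7% of H3K27me3 regions were lost, but these were peaks merged over the 4 libraries, a different unit from PLT5 sites. The interval covers counting error only, and these shares are not tested. Two-mark sites had H3K27me3 at 81.1% and 81.2% in the plt345 libraries and lost it at 11.7%. The difference of H3K27me3-only from two-mark sites was −2.84 and −3.48 points by library. Its WT side is 0 by the choice of both classes, so it is given without a test. The mean gap of −3.16 points was −0.772 when only the peaks past the 25th percentile of q in each list were used and −6.25 within strata of WT H3K27me3 length, a setting chosen after the data were examined. Without WT H3K27me3 replicate 1 or 2 it was −1.28 and −1.95, and without PLT5 replicate 2 it was −1.38. The number lost was 256 and 250 without plt345 H3K27me3 replicate 1 or 2, 96 with equal numbers of peaks per library and 63 of 753 sites with equal covered length.

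Lost sites had shorter H3K27me3 peaks in WT than kept sites. Kept sites lay under peaks with a median of 1668 bp in WT and lost sites under 592 bp, and the median WT −log10 q was 4.35 and 2.54. PLT5 sites with H3K27me3 in both WT libraries were cut into 3 equal strata of WT peak length, at 717.5 and 1506.5 bp, after the values were seen. In the shortest stratum 105 of 310 H3K27me3-only sites lost the mark (33.9%), against 39 of 360 (10.8%) in the middle and 19 of 480 (3.96%) in the longest. Two-mark sites followed the same order at 22.2%, 7.996% and 2.76%. Of the 163 lost sites, 142 (87.1%) lay in a domain without any plt345 peak, and the median gap to the nearest plt345 H3K27me3 peak was 4220 bp. Lost sites had a median width of 548 bp, close to the 592 bp of their WT peaks. The part of this similar size in the 87.1% was not tested, and that share was not compared with other sites. At the 807 kept sites H3K27me3 covered 1751 and 1720 bp of the 4 kb around the summit in WT and 1555 and 1541 bp in plt345, a ratio of 0.892. Over all 1150 sites the values were 1516 and 1490 bp against 1197 and 1190 bp, a ratio of 0.794, beside 0.811 for all PLT5 sites. WT coverage at these sites is high by the choice, so that a ratio below 1 is no finding.

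**Figure D3:**
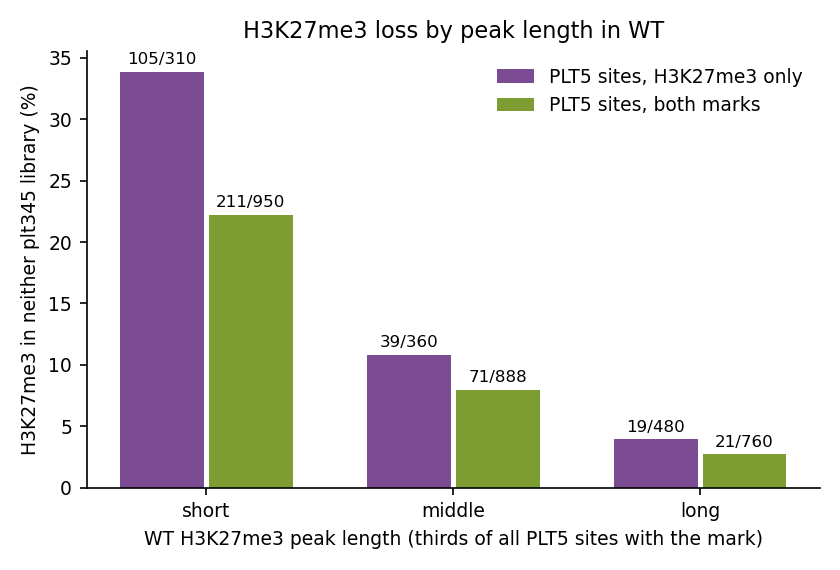
Percent of PLT5 sites with H3K27me3 in neither plt345 library (bars), by 3 equal strata of WT H3K27me3 peak length over all PLT5 sites with the mark in both WT libraries. Numbers over bars are sites lost and sites in the stratum, pooled over libraries, so there are no error bars. Loss goes from 33.9% of short to 3.96% of long peaks at H3K27me3-only sites and from 22.2% to 2.76% at two-mark sites.

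The lost sites with the longest WT peaks showed losses of long H3K27me3 as well. On chromosome 1 from 33516453 to 33516790 the site lay under H3K27me3 peaks of 5926 and 5948 bp in WT and under none in plt345, 594 bp from a WT H3K4me3 peak. On chromosome 7 from 17538333 to 17538745, a strong PLT5 site with a −log10 q of 43.8 and 44.7, the WT peaks measured 4125 and 4064 bp and covered 227 and 271 bp of the site. On chromosome 3 from 8545553 to 8546134 they measured 3498 and 3808 bp. The last 2 kept EMF2b in all 4 libraries, and the first had EMF2b in plt345 replicate 1 only. The longest H3K27me3 in plt345 lay over the site of chromosome 9 from 19256831 to 19257330, with 4845 and 3956 bp against 4960 and 4888 bp in WT, and over that of chromosome 3 from 27944210 to 27944943, with 4360 and 4195 bp against 4133 and 4221 bp.

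A small group of sites had H3K27me3 peaks no larger than the PLT5 peak, and they made up 27 of the 100 H3K27me3-only sites with the highest PLT5 −log10 q. At 91 of the 1150 sites (7.91%) the H3K27me3 peaks of both WT libraries lay wholly inside the PLT5 site, a split made after the values were seen. Their median H3K27me3 length was 504 bp, against 1342 bp at the other 1059 sites, and their median PLT5 −log10 q 10.99 against 9.07. H3K27me3 was lost at 36 of them (39.6%) and at 127 of the others (12%), while EMF2b was in both WT libraries at 90.1% of them and 72.2% of the others. Two-mark sites held 489 such sites (18.8%), which lost H3K27me3 at 22.7%. Without this group the EMF2b difference of plt345 from WT was −8.73 points and the gap to two-mark sites in H3K27me3 −4.40 points.

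Of the 10 H3K27me3-only sites with the highest PLT5 −log10 q, 5 had this form and 5 did not. The site of chromosome 12 from 20486705 to 20487183 had a PLT5 −log10 q of 137 and 128. Its H3K27me3 peaks measured 398 and 388 bp in WT, with none in plt345 replicate 1 and 332 bp in replicate 2, while EMF2b peaks of 390 to 441 bp lay there in all 4 libraries. The site of chromosome 12 from 13342225 to 13342720, with PLT5 at 141 and 114, had H3K27me3 peaks of 372 and 358 bp in WT and none in plt345, and its EMF2b −log10 q was 99.4 and 96.3 in the WT libraries, beside 100 and 126 for the mutant. The same loss with EMF2b kept was seen on chromosome 8 from 5818087 to 5818558 and chromosome 1 from 39197993 to 39198502. H3K27me3 was retained on chromosome 4 from 16289059 to 16289498 and, with 304 and 313 bp in plt345, on chromosome 10 from 20070926 to 20071409. Among the 10 strongest H3K27me3-only sites 5 had the mark in neither plt345 library and all 10 had EMF2b in all 4 libraries. Among the 100 strongest of the 1150 sites 27 lost H3K27me3 and 86 had EMF2b in all 4. With the IgG samples not analysed here, signal common to all antibodies at these sites was not tested.

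EMF2b was found at larger shares of stronger PLT5 sites in both genotypes, while loss of H3K27me3 had no such order over 4 classes of strength. The sites were cut into 4 equal classes by mean PLT5 −log10 q. From the weakest to the strongest class, EMF2b in both WT libraries was found at 62.2%, 71.8%, 72.8% and 87.8%. In both plt345 libraries the shares were 48.6%, 56.8%, 64.5% and 81.6%. Of sites with EMF2b in WT, 12.8%, 15.5%, 13.4% and 5.93% lost it in that order. H3K27me3 was lost at 17%, 11.1%, 11.5% and 17%, the same share in the weakest and the strongest class. Within the strongest class loss was uneven. The 50 sites with the highest PLT5 −log10 q lost H3K27me3 at 24 (48%), and the 100 highest at 27. At 21 of these 50 sites the WT H3K27me3 peaks lay wholly inside the PLT5 site. Classes held 287 or 288 sites, and stronger sites were also wider, with a median of 563 bp in the first and 702 bp in the last class, which gives more room for overlap.

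**Figure D4:**
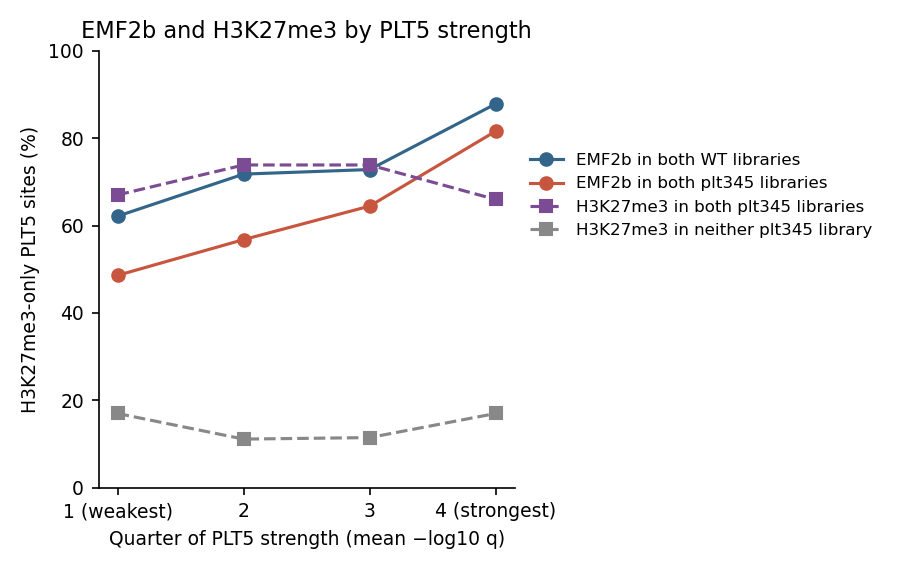
Percent of H3K27me3-only PLT5 sites with EMF2b in both WT or both plt345 libraries and with H3K27me3 in both or neither plt345 library (y axis) by class of PLT5 strength (x axis, 287 or 288 sites each, pooled over libraries). EMF2b is found at 62.2% of the weakest and 87.8% of the strongest class in WT, and H3K27me3 is absent from both plt345 libraries at 17% of each.

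H3K4me3 appeared in plt345 at few of the sites. A peak lay on 101 of the 1150 sites (8.78%) in plt345 replicate 1 and on 102 (8.87%) in replicate 2, and 59 sites had it in both (5.13%, Wilson 95% interval 3.998 to 6.562%). All sites lacked the mark in WT by choice, so only gains could be seen. Over all 2410 PLT5 sites without H3K4me3 in either WT library, which include these 1150, 3.9% gained it. At sites with neither mark it was 3.20%, with 5.43% in each plt345 library. The interval covers counting error only and sites are not independent replicates, so these shares are set side by side and not tested. Without plt345 H3K4me3 replicate 1 or 2 the gains numbered 102 and 101, without WT H3K4me3 replicate 1 102 and without PLT5 replicate 2 90, and with equal numbers of peaks per library 32. The mutant peaks were small. At 57 of the 59 sites they touched no WT H3K4me3 peak, and 7 of these 57 sites lay within 1 kb of one. The choice makes such contact unlikely: a median of 359 and 345 bp of the peaks lay inside the site, where WT had no H3K4me3. The median length of the mutant peaks was 434 and 420 bp by plt345 library, against 810 and 827 bp for all H3K4me3 peaks. Their median −log10 q was 8.99 and 9.46, against 17.4 and 17.9.

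Coverage by H3K4me3 in plt345 had a peak at the PLT5 summit, the place where the choice left none in WT. At the summit itself 7.13% and 7.74% of sites were covered by H3K4me3 in the plt345 libraries, and 0% in WT by choice. At 1 kb to either side, where the choice did not act directly, H3K4me3 covered 3.04% and 2.78% (left) and 3.48% and 3.57% (right) of sites in WT against 2.78% and 2.61% and 3.04% and 2.87% in plt345, so the mutant was not higher there. Over the 4 kb around the summit H3K4me3 covered a mean of 150 and 149 bp per site in WT and 180 and 179 bp in plt345, a ratio of 1.20, beside 1.04 at sites with neither mark. EMF2b had its highest coverage at the same place, with 75% and 75% of summits covered in WT and 58.4% and 66.9% in plt345. At 500 bp to the right of the summit EMF2b covered 22.3% and 19% of sites in WT and 8.70% and 11.1% in plt345. H3K27me3 covered 93.7% and 94% of summits in WT and 71.6% and 70.9% in plt345, and 18% and 17.6% against 13.7% and 13.7% at 2 kb to the left.

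**Figure D5:**
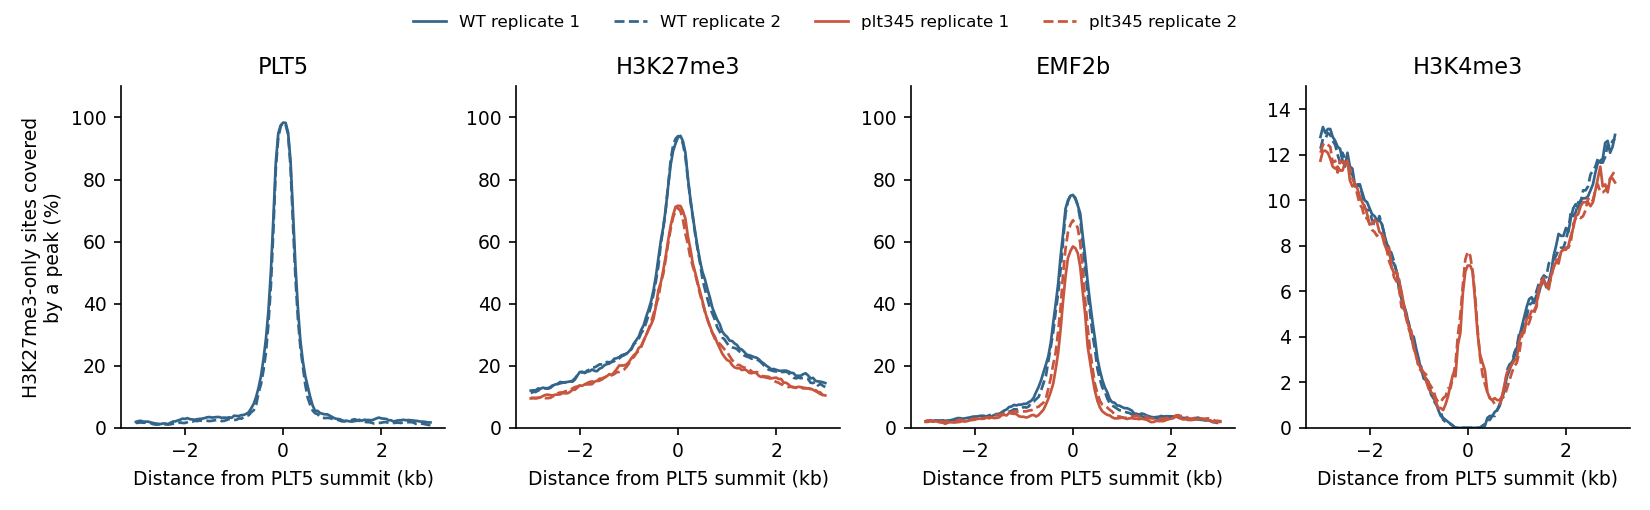
Percent of the 1150 H3K27me3-only sites covered by a peak at each distance from the PLT5 summit (x axis, kb, on the forward strand of the lists), for PLT5, H3K27me3, EMF2b and H3K4me3. Each line is a library. The H3K4me3 panel has a smaller y range: its WT lines reach 0 at the centre by choice, and the plt345 lines reach 7.13% and 7.74% there.

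Most sites that gained H3K4me3 kept H3K27me3, as did most H3K27me3-only sites, and 28 of the 59 had EMF2b in both WT libraries. H3K27me3 was in both plt345 libraries at 48 of the 59 (81.4%), beside 70.2% of all H3K27me3-only sites. It was in neither at 3, so 48 sites had both marks in the mutant. Of the gained sites 55.9% lay in the stratum of the longest WT H3K27me3 peaks, beside 41.7% of all. H3K27me3-only sites of that stratum kept H3K27me3 at 92.3%. EMF2b was in both WT libraries at 47.5% of the 59 gained sites, against 75.3% of the 1006 sites that had H3K4me3 in neither plt345 library. H3K4me3 was gained at 22 of the 193 sites without EMF2b in WT (11.4%) and at 28 of the 847 with it (3.31%). In plt345 EMF2b lay on 64.4% and 76.3% of the gained sites, close to its share over all H3K27me3-only sites. Gains were 6.88% in the stratum of the longest WT H3K27me3 peaks and 3.87% in the shortest. By distance from WT H3K4me3 they had no order, with 5.03% of sites under 1 kb from such a peak, 2.78% at 1 to 5 kb and 8.12% at 5 kb or more, beside 4.62%, 2.00% and 5.20% for sites with neither mark.

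The sites with the longest gained H3K4me3 carried all 3 readouts in the mutant. On chromosome 8 from 212383 to 213019 H3K4me3 covered 637 and 552 bp of the site in plt345, under H3K27me3 peaks of 3312 and 3244 bp in WT and 4896 and 3362 bp in plt345. EMF2b was absent there in WT and covered 276 and 500 bp in plt345. On chromosome 7 from 28975648 to 28976982 H3K4me3 covered 531 and 644 bp, and EMF2b lay there in WT replicate 1 and both plt345 libraries. On chromosome 1 from 6238878 to 6239723 H3K4me3 covered 499 and 674 bp, with EMF2b and H3K27me3 in all 4 libraries.

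The same choice was also made in the mutant, where it favours the opposite direction. In plt345, 1019 PLT5 sites had H3K27me3 in both libraries and H3K4me3 in neither, and 690 of them (67.7%) were H3K27me3-only sites of WT. Of the 1019, 21 (2.06%) had no H3K27me3 in WT, beside the 163 of 1150 lost from WT. H3K4me3 was in both WT libraries at 164 of them (16.1%), beside the 59 gained in plt345. EMF2b lay on 79.8% and 79% of the 1019 in WT and 67.1% and 73.2% in plt345, again lower in both mutant libraries. PLT5 sites were found in WT in both cases, so PLT5 has no mirror. The mirror is not even for the histone marks either, since their lists differ in size. H3K27me3 lists held 20841 and 20942 peaks in plt345 against 23957 and 24185 in WT. H3K4me3 lists held 27182 and 26841 peaks in plt345 against 25762 and 25165 in WT. The part of list size and of the WT choice of PLT5 sites in these counts was not tested. A total of 357 sites (31% of 1150) kept H3K27me3, stayed without H3K4me3 and had EMF2b in all 4 libraries.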

How the data were processed

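Peak lists of 14 CUT&Tag libraries were used. MACS2 2.2.7.1, deepTools 3.5.0, Bowtie2 2.4.4 and Trim Galore 0.6.6 are named in the list of tools, per the submitters' processing notes. The step each tool served, the control library, duplicate handling and the genome build were not given in the sources used here. The deposited lists (no header, columns in MACS2 order) give peak start and end, a score, a fold enrichment (a ratio over the caller's own background) and −log10 p and −log10 q by the authors. Peaks were called in each library, not on pooled samples, and peak names record a p cutoff of 1e-05 (narrow lists) or a broad cutoff of 0.1 (H3K27me3).

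Overlapping PLT5 peaks were merged, and presence was at least 1 bp of overlap. The value at a site is that of its peak with the highest −log10 q, and the PLT5 summit is the mean over both libraries. Shares per library were compared by exact two-sided permutation tests with Python 3.11.15 and scipy 1.17.1. The labels do not say whether replicates are separate plants, so p-values measure only the spread between libraries, which may be technical. Read depth is unknown, and the number of peaks per library is the only guide to precision. Intervals are Wilson 95% intervals. They cover counting error only, and sites of a library are not independent replicates. Calls were tested on simulated peaks. Samples were grouped by title. Named sites are the first by rank in each of these lists: PLT5 strength, longest WT H3K27me3 among lost sites, longest gained H3K4me3, strongest lost and gained EMF2b, longest H3K27me3 in plt345, and the sites nearest each threshold. The members and lists were chosen with earlier results of these data known. Alternatives were overlap, peak strength, equal peak number or length, a summit window, each library left out and pairing by replicate number. No genome of the lists' assembly was used here, so no sequences or genes are given.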

Additional observations from a re-analysis of the deposited data

Results flagged for a closer look

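EMF2b in plt345 stood on opposite sides of WT in 2 classes of PLT5 sites. At H3K27me3-only sites both plt345 libraries were below both WT libraries, by −8.48 percentage points on average, while at sites with both marks both plt345 libraries were above both WT libraries, by 2.14 points. The exact permutation test of this difference gave p = 0.333, the smallest that 2 against 2 libraries allow, so it cannot pass 0.05. The pattern was not particular to these 2 classes. Sites with neither mark differed by −13.1 points and sites with H3K4me3 alone by 3.55 points. With equal covered length per library the difference at H3K27me3-only sites was −0.598 points.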

How the results depend on the processing

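With 2 against 2 libraries no exact test can pass 0.05, so alternatives could only change a direction or a size. The EMF2b difference kept its sign in all 21 alternatives run, but leaving out a plt345 library of either histone mark could not change it. With equal covered length per library it was only −0.598 points. The covered-length ratios of both marks kept their direction, but the choice of sites in WT pushes these one way, so this is no sign of stability. The gap to two-mark sites in H3K27me3 kept its sign as well. Its WT side is 0 by choice, and leaving out an EMF2b library could not change it. With only peaks past the 25th percentile of q it was −0.772 points. Over libraries left out in turn, the EMF2b difference was −11.8 to −5.13 points, the H3K27me3 length ratio 0.768 to 0.808, the H3K4me3 length ratio 1.17 to 1.28 and the gap −3.48 to −1.28 points. There were 1150 to 1826 sites, 98 to 190 EMF2b losses, 28 to 64 EMF2b gains, 163 to 256 H3K27me3 losses and 59 to 102 H3K4me3 gains, since dropping a library asks for fewer. Equal numbers of peaks per library gave 18 EMF2b gains, 96 H3K27me3 losses and 32 H3K4me3 gains. Equal covered length gave 753 sites, 61 EMF2b losses and 63 H3K27me3 losses, with fewer sites by construction. Replicate numbers are not stated to pair libraries, and the deviations of same-numbered libraries correlated at −0.00733 (H3K27me3), −0.0239 (H3K4me3) and −0.0222 (EMF2b) over 8781 sites. When same-numbered libraries were paired (replicate block), so that a call needs 1 library of each genotype, there were 172 EMF2b losses, 74.5 EMF2b gains, 253 H3K27me3 losses and 101.5 H3K4me3 gains on average per pair, and the EMF2b difference stayed at −8.48 points (exact p = 0.5, the smallest for 2 pairs). Peak lists carry no reads, so a site without a peak may hold signal under the authors' cutoff, and depth cannot be weighed.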
